A study of Mus musculus with 6 samples.

Results

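The genes described here are Synpo, which encodes the actin-associated protein synaptopodin, and 9 genes of the actomyosin machinery: Actn1, Actn4, Myh9, Myh10, Tpm1, Tpm2, Tpm4, Myl9 and Acta2. They were found by gene symbol, 10 of the 19618 genes listed, and all 10 passed the filter on low counts that left 15422 genes for testing. The genes were chosen by symbol with the knockout and control levels of these same libraries known, Synpo for its own difference between the genotypes. The values of Synpo are therefore given as a description with no test.

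RNA was sequenced from keratinocytes of tail skin taken from mice 4 months old, and the study compared mice lacking Gpr161 in the epidermis with control mice, with 3 libraries in each group. Gpr161 encodes a ciliary G protein-coupled receptor that restrains Hedgehog signalling. The knockout mice carried K14cre, a Cre recombinase driven by the keratin 14 promoter and so active in basal keratinocytes and their progeny, and were Gpr161Flox-Homozygous. The controls had no K14cre in their labels; control 1 was Gpr161Flox-Homozygous and the other controls were Gpr161Flox-Heterozygous, so every label named a floxed allele. As labelled, no control carried K14cre, so effects of the transgene itself and of the deletion cannot be told apart. The table names each library by group and by a tag. The control tags are DE680, DE684 and DE689, and the knockout tags are DE679, DE685 and DE688; the names do not state which control is homozygous, and the order of the columns was not used.

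Contractile force in non-muscle cells comes from bundles of actin filaments pulled by nonmuscle myosin II. Alpha-actinins crosslink the filaments, tropomyosins coat them and govern access of myosin, and phosphorylation of the regulatory light chain switches the motor on downstream of the small GTPase RhoA. In the epidermis this machinery is anchored at cell junctions and focal adhesions. Synaptopodin is best known from the foot processes of kidney podocytes and from dendritic spines, where it binds alpha-actinin and stabilises actin bundles.

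Libraries held 17157864 to 25344399 estimated counts, and 3 counts in a library correspond to 0.117 to 0.173 CPM (counts scaled to the same library total, here with TMM factors, the trimmed mean of M values). The labelled cell type was borne out by its markers: Krt5, a basal keratin, had 11196 to 15700 CPM and Krt14, its partner, 8847 to 11470 CPM. Across the whole table, 247 genes (1.6% of those tested) had an adjusted p under 0.05 in edgeR's quasi-likelihood test, 192 higher and 55 lower in the knockout. Gpr161 itself, counted over the whole gene, averaged 28.8 ± 4.23 CPM in knockouts against 31.4 ± 1.10 CPM in controls (SD, n = 3 each) and so did not check the labels. Gli1, a Hedgehog target, had 69.4 ± 4.42 against 9.15 ± 0.857 CPM (SD, n = 3 each).

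Synpo (chromosome 18, 60593973 to 60660142, minus strand, GRCm38) was the member whose genotypes were farthest apart. Its knockout libraries DE679, DE685 and DE688 held 49.9, 45.6 and 63.0 CPM, and its control libraries DE680, DE684 and DE689 held 14.7, 14.2 and 15.7 CPM. Every knockout library lay above every control library, and the lowest knockout library was 2.91 times the highest control library. The controls were tightly grouped and the knockout libraries more spread, with a coefficient of variation of 5.13% and 17.2% respectively. The values rest on 790 to 1620 counts per knockout library and 323 to 395 per control library. The means were 52.8 ± 9.06 and 14.8 ± 0.761 CPM (SD, n = 3 each), and the fitted log2 fold change was 1.83 (SE 0.13, 95% confidence interval 1.54 to 2.13), a 3.56-fold higher level in the knockout. In bulk RNA a change in the share of cells that express a gene and a change in RNA per cell cannot be told apart. Synpo exons overlapped those of no other gene in the GENCODE M21 annotation, and 0 of its 9708 distinct 50-base transcript words occurred in a transcript of another gene.

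**Figure D1:**
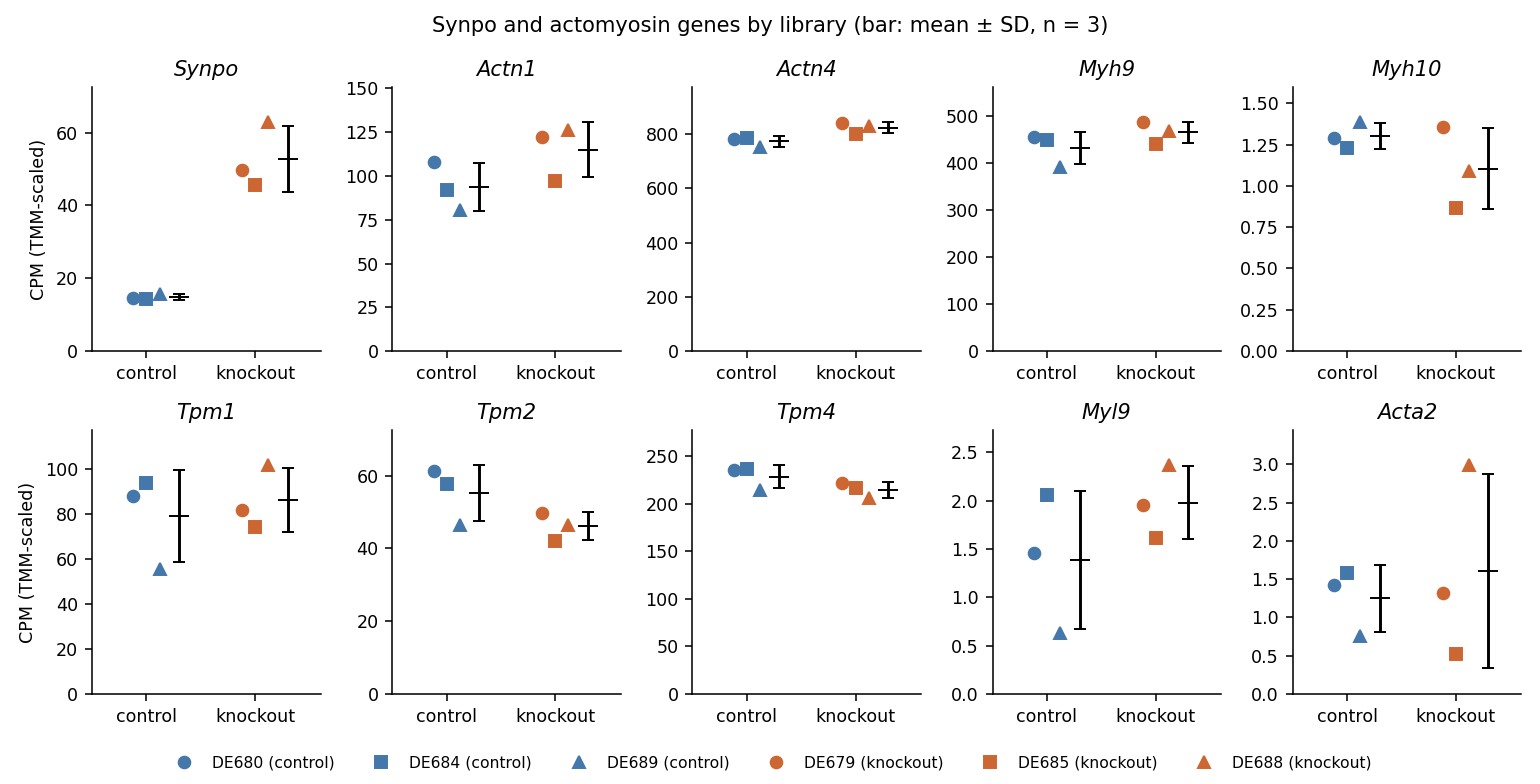
Level of each of the 10 genes in CPM (y axis, from 0, a separate scale for each gene) in the 3 control and the 3 knockout libraries; symbols are libraries, and bars are the mean ± SD (n = 3). The Synpo libraries separate by genotype (14.2 to 15.7 CPM against 45.6 to 63.0 CPM), Actn4 separates narrowly, and the groups overlap for the other 8 genes.

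The binding partners of synaptopodin, the alpha-actinins, showed no difference that passed the threshold. Actn4 (chromosome 7, 28893248 to 28962340, minus strand), the more abundant of the non-muscle alpha-actinins here, held 841, 800.2 and 832 CPM in the knockouts DE679, DE685 and DE688, and 781, 788 and 751 CPM in the controls DE680, DE684 and DE689. Its groups did not overlap, yet the gap was small: the log2 fold change was 0.09 (SE 0.06, 95% confidence interval −0.04 to 0.22, edgeR adjusted p 0.408). Actn1 (chromosome 12, 80167547 to 80260371, minus strand), which crosslinks stress fibres and links them to adhesions, had 122, 96.9 and 126 CPM in DE679, DE685 and DE688. In the controls DE680, DE684 and DE689 it had 108, 92.0 and 80.8 CPM, so that DE685 lay among the controls. The Actn1 log2 fold change was 0.30 (SE 0.13, 95% confidence interval −0.01 to 0.60, edgeR adjusted p 0.270). Exons of Actn4 overlap those of Capn12, and exons of Actn1 those of Gm47766 and Gm47767, on the opposite strand. Whether counting used the strand is not given in the sources used here, so a contribution from these genes to the counts is uncertain.

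The myosin II heavy chains differed greatly in level from each other and little between genotypes. Myh9 (chromosome 15, 77760587 to 77842175, minus strand), the heavy chain of nonmuscle myosin IIA, had 486, 440.3 and 466 CPM in DE679, DE685 and DE688 and 454, 449 and 391 CPM in DE680, DE684 and DE689. DE689 was the lowest of the 6 libraries, while the other controls lay inside the knockout range (log2 fold change 0.11, SE 0.08, 95% confidence interval −0.07 to 0.28, edgeR adjusted p 0.488). Myh10 (chromosome 11, 68691559 to 68816632, plus strand), the heavy chain of myosin IIB, was low in every library, with 0.866 to 1.36 CPM in the knockout and 1.23 to 1.39 CPM in the control. These are 15 to 35 counts per library, and the log2 fold change of −0.23 (SE 0.28, 95% confidence interval −0.88 to 0.42, edgeR adjusted p 0.696) is correspondingly imprecise. Per kilobase of exon, control libraries averaged 33.4 ± 2.69 CPM for Myh9 and 0.124 ± 0.00774 CPM for Myh10 (SD, n = 3 each), and these ranges did not overlap in either genotype. Of the 50-base transcript words of Myh10, 0.689% also occur in other genes, Myh9 first among them, and the deposited estimates of Myh10 were whole in 0 of the 6 libraries.

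Among the tropomyosins, Tpm1 was higher and Tpm2 and Tpm4 were lower in the knockout by point estimate, and none passed the threshold. Tpm1 (chromosome 9, 67022590 to 67049406, minus strand) held 81.8, 74.2 and 102 CPM in the knockouts (DE679, DE685, DE688) and 88.0, 93.4 and 55.6 CPM in the controls (DE680, DE684, DE689). The highest library was a knockout and the lowest a control, while the other knockouts, DE679 and DE685, lay below the other controls, DE680 and DE684. Its estimate of 0.12 on the log2 scale (SE 0.20; adjusted p 0.777, edgeR) turned to −0.017 without DE688 and to −0.075 without DE689. Tpm2 (chromosome 4, 43514711 to 43523765, minus strand), also known as beta-tropomyosin, had 49.8, 42.2 and 46.48 CPM in DE679, DE685 and DE688. In DE680, DE684 and DE689 it had 61.4, 57.8 and 46.49 CPM; the last of these lay inside the knockout range. The Tpm2 log2 fold change was −0.26 (SE 0.11, 95% confidence interval −0.52 to 0.01, edgeR adjusted p 0.272).

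Tpm4 (chromosome 8, 72134975 to 72153142, plus strand, with an earlier start at 72130174 in the deposited table) encodes the tropomyosin found on dynamic stress fibres. It had 221, 216 and 205 CPM in DE679, DE685 and DE688 and 235, 236 and 214 CPM in DE680, DE684 and DE689, so the groups overlapped narrowly. The log2 fold change was −0.09 (SE 0.06, 95% confidence interval −0.24 to 0.05, edgeR adjusted p 0.463). Of its transcript words, 11.7% also occur in Gm7809, and Gm26586 overlaps its exons on the opposite strand, so its counts are uncertain to that extent.

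Myl9 and Acta2 are the members most closely tied to smooth muscle, and both were low in every library. Myl9 (chromosome 2, 156775420 to 156781658, plus strand) encodes a myosin regulatory light chain. Its promoter is shown because it was the only one of the 9 member promoters examined that held a CArG box in the strict form given below. The CArG box is the element bound by serum response factor, the transcription factor that drives many actin and myosin genes. The site lay at chr2:156775293-156775322 (GRCm38.p6, RefSeq, plus strand), with the box in capitals. It started 161 bases before the RefSeq start, which is not the GENCODE start given above.

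Myl9 CArG box: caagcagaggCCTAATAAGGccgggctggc

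A CArG box on either strand occurred in 535 of 32851 promoter windows (1.63%) of the same 300 bases, from 250 before to 50 after the start. The form searched was CC, then only A or T at the middle positions, then GG. The windows of Actn1, Actn4, Myh9, Myh10, Tpm1, Tpm2, Tpm4 and Acta2 held none in that form. Looser forms of the box and bases outside the windows were not searched, so a CArG box of these genes is not excluded.

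Myl9 held 1.95, 1.62 and 2.37 CPM in the knockouts (DE679, DE685, DE688) and 1.46, 2.06 and 0.635 CPM in the controls (DE680, DE684, DE689). DE684, a control, was second only to DE688, and the log2 fold change of 0.52 had a 95% confidence interval from −0.44 to 1.49 (edgeR adjusted p 0.529). Acta2 (chromosome 19, 34241090 to 34255590, minus strand), the alpha-actin of smooth muscle and myofibroblasts, held 1.31, 0.520 and 3.00 CPM in the knockouts (DE679, DE685, DE688). In the controls (DE680, DE684, DE689) it held 1.42, 1.58 and 0.754 CPM. Both the highest and the lowest library were knockouts, so that all 3 controls fell between them. The Acta2 counts were 9 to 77 per library and the log2 fold change was 0.40 (SE 0.58, 95% confidence interval −0.95 to 1.74, edgeR adjusted p 0.753); without DE688 it was −0.41. The Myl9 value moved between 0.18 without DE689 and 0.93 without DE684.

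**Figure D2:**
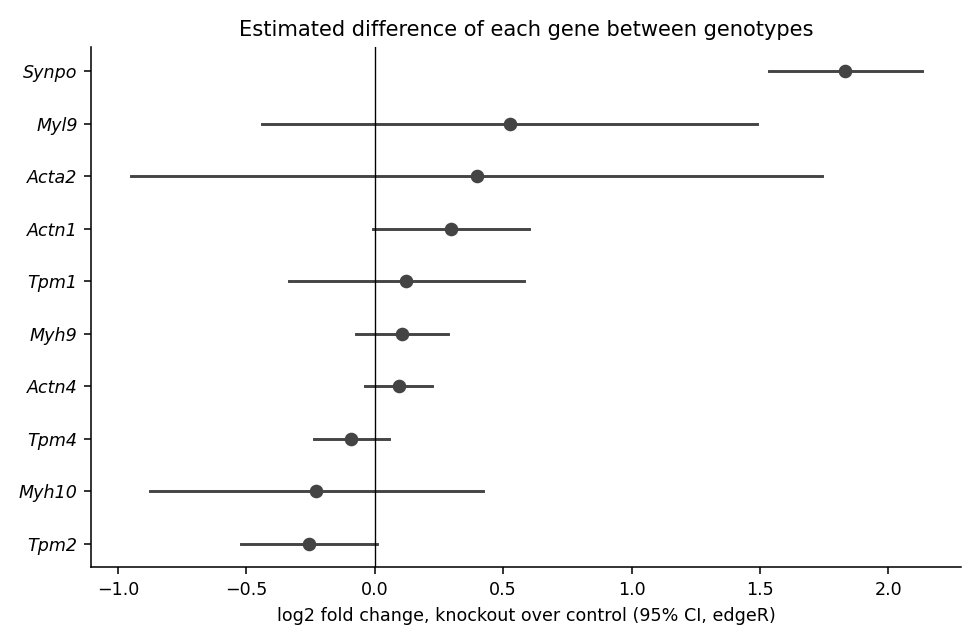
Fitted log2 fold change of each gene, knockout over control (x axis), with its 95% confidence interval from the edgeR fit, ordered by size. The Synpo interval runs from 1.54 to 2.13. Synpo was chosen by this contrast, so its interval is a description and not a test. The intervals of the other 9 genes all include 0. Those of Acta2 and Myl9, with the wide spread between libraries, are the widest.

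Synpo was chosen by this contrast, so no call of it is counted here. Of the other 9 members, 0 were called, where 1.6% of all genes tested were called. Their estimates ran from −0.26 (Tpm2) to 0.52 (Myl9), 6 above 0 and 3 below, with edgeR adjusted p from 0.270 to 0.777. At an unadjusted p under 0.05 the count among these 9 was again 0, where 19% of all genes tested passed. Among these 9, Actn4 alone had groups that did not overlap, where 25.6% of all genes tested did not. Actn4 was higher in the knockout, as were 12.8% of all genes tested, and 0 members lay wholly lower, as did 12.8% of all genes tested. The median log2 fold change over the 10 members, Synpo included, was 0.11 and that over all genes tested was −0.0036. For Actn4, Myh9 and Tpm4 the intervals were narrow enough to bound the fold: the upper limits were 1.17, 1.22 and 1.04 and the lower limits 0.974, 0.952 and 0.848.

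Single libraries held many of the extreme values. DE688, a knockout, had the highest value of the 6 libraries for 5 members (Synpo, Actn1, Tpm1, Myl9 and Acta2) and the lowest for Tpm4. DE689, a control, had the lowest for 5 members (Actn1, Actn4, Myh9, Tpm1 and Myl9) and the highest for Myh10. DE685, a knockout, had the lowest for 3 (Myh10, Tpm2 and Acta2). For Tpm1 and Acta2, the other controls, DE680 and DE684, lay inside the knockout range.

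The tags form 3 runs of adjoining numbers, each holding a knockout and a control: DE679 is next to DE680 in number, DE685 to DE684, and DE688 to DE689. What the tags mean is not given in the sources used here. Deviations from the group means, over 15422 genes, correlated within these runs with r of 0.24, 0.39 and 0.41. Correlations between libraries of different runs were not computed, so these values have no baseline and do not show whether a run shares a preparation. Within the runs, the knockout-to-control ratio of Synpo was 3.40, 3.22 and 4.02. Actn1 was higher in the knockout in all 3 runs (1.13, 1.05 and 1.56 times) and Tpm2 lower (0.811, 0.729 and 0.9998 times). Actn4 was also higher and Tpm4 lower in all 3, while Myh9, Myh10, Tpm1, Myl9 and Acta2 were mixed. With the run as a block, an alternative added after seeing the data, the Actn1 estimate was 0.30 (edgeR p 0.0243 unadjusted, adjusted p 0.152) and the Tpm2 estimate −0.25 (edgeR p 0.0299 unadjusted, adjusted p 0.169), and 0 of the 9 members other than Synpo passed.

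On a per-length scale, the 10 genes spanned a wide range, and Synpo ranked seventh of 10 by mean in both genotypes. In the control, CPM per kilobase of exon averaged 126 for Actn4, 104 for Tpm4, 33.4 for Myh9, 19.0 for Tpm2, 16.9 for Actn1, 12.2 for Tpm1, 1.56 for Synpo, 1.19 for Myl9, 0.570 for Acta2 and 0.124 for Myh10. In the control, the range of Tpm2 (up to 21.1) overlapped that of Actn1 (14.6 to 19.5), and every Actn1 value lay above those of Tpm1 (8.57 to 14.4). In the control, Synpo (1.49 to 1.64) lay within the range of Myl9 (0.546 to 1.77). In the knockout, Synpo (4.79 to 6.61) lay above every Myl9 value (1.39 to 2.04) and below every Tpm1 value (11.4 to 15.7). The non-overlap of these ranges was not tested. Actn4 per kilobase was 126 ± 3.18 CPM in controls and 135 ± 3.52 CPM in knockouts (SD, n = 3 each), far above Synpo in both.

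**Figure D3:**
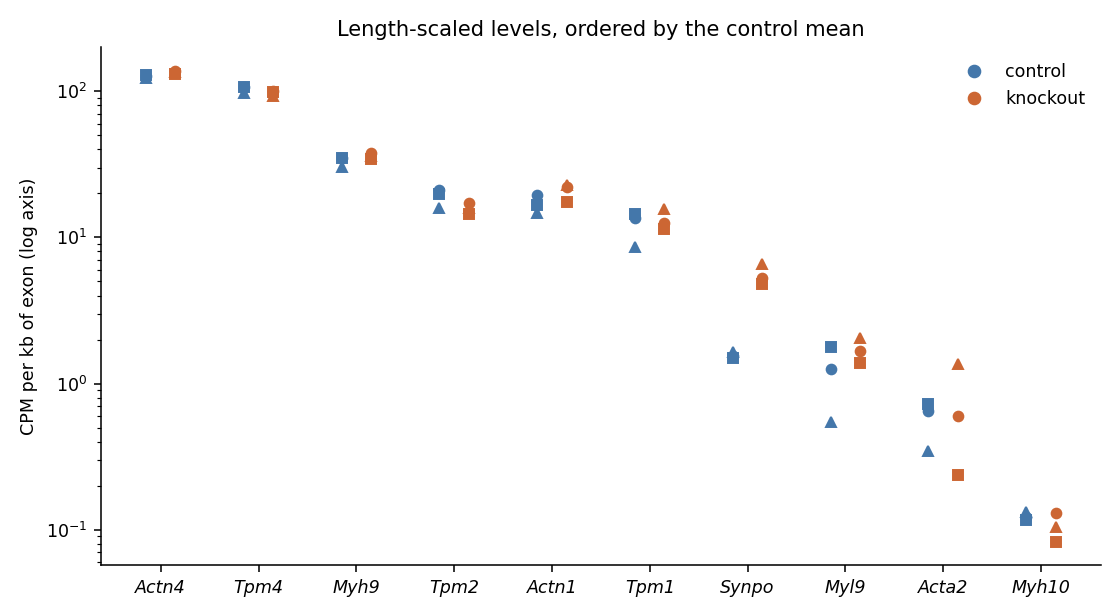
CPM per kilobase of exon (y axis, log scale) for each gene, ordered by its control mean, with the 3 control and the 3 knockout libraries side by side. Actn4 and Tpm4 lead at about 100 in every library, Myh10 is lowest, and Synpo sits at 1.49 to 1.64 in the control and 4.79 to 6.61 in the knockout.

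The surrounding machinery was read from 8 lists of actomyosin genes, 115 genes in all with the members included, of which 102 were tested. Leaving out the members, 2 of 92 tested genes (2.17%) rose in the knockout, Lasp1 and Cgnl1, and 0 fell, where 1.24% and 0.357% of all genes tested were called higher and lower by the same edgeR test. The Cgnl1 rise was known when its list was written, so these counts are no independent evidence. The DESeq2 Wald test called 11 of the listed genes, Synpo included, among them Synpo2, Lima1, Cnn2, Inf2 and Lcp1, which were higher, and Shroom3 and Fhl2, which were lower. That test called 5.89% of the genes to which it gave an adjusted p, 872 in all. With the runs of adjoining tags as a block, edgeR called 6 of the 92 higher, among them Lasp1, Cgnl1, Cnn2, Lcp1 and Synpo2, and 2 lower, Shroom3 and Fhl2. That fit called 3.02% of all genes tested higher and 1.55% lower. At an unadjusted p under 0.05 without the block, 19 of the 92 were higher and 11 lower in edgeR, that is 20.7% and 12%, where 9.9% and 9.1% of all genes tested were higher and lower. The median log2 fold change was 0.03 over the 92 genes.

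Among actin crosslinkers and the synaptopodin family, 18 genes were tested, with a median log2 fold change of 0.16. At an unadjusted p under 0.05 in edgeR, 7 were higher, Synpo included, and 2 lower. These are 38.9% and 11.1%, where 9.9% and 9.1% of all genes tested were higher and lower. Apart from Synpo, which was chosen by this contrast, only Lasp1 was called (chromosome 11, 97799000 to 97838764, plus strand). Lasp1 encodes a LIM and SH3 domain protein of actin bundles and focal adhesions. Lasp1 had 99.4, 87.4 and 105 CPM in DE679, DE685 and DE688, against 70.1, 61.9 and 66.2 in DE680, DE684 and DE689. The groups did not overlap, and the log2 fold change was 0.56 (SE 0.08, edgeR adjusted p 0.0237). The Lasp1 call was lost in 5 of the 6 fits that left out a library (without DE679, DE680, DE684, DE688 or DE689, adjusted p 0.0623 to 0.104) and held without DE685 (0.0288). Of its transcript words, 1.78% also occur in Gm4875. Synpo2, a paralogue of Synpo also called myopodin, had 9.80 ± 1.45 against 5.86 ± 0.440 CPM (SD, n = 3 each) and fell short of the threshold in edgeR (log2 fold change 0.74, adjusted p 0.0646).

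The list of synaptopodin partners at podocyte and tight junctions had 1 of 10 tested genes called higher, Cgnl1, and 0 lower, with a median of 0.01. At an unadjusted p under 0.05 in edgeR, 3 were higher, Cgnl1 included, and 0 lower. These are 30% and 0%, where 9.9% and 9.1% of all genes tested were higher and lower. Cgnl1 (chromosome 9, 71626509 to 71771602, minus strand) encodes paracingulin, which links tight and adherens junctions to actin. It had 74.1, 83.2 and 91.4 CPM in DE679, DE685 and DE688, against 30.4, 34.8 and 34.4 in DE680, DE684 and DE689, with no overlap. The log2 fold change was 1.32 (SE 0.10, edgeR adjusted p 0.00147).

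**Figure D4:**
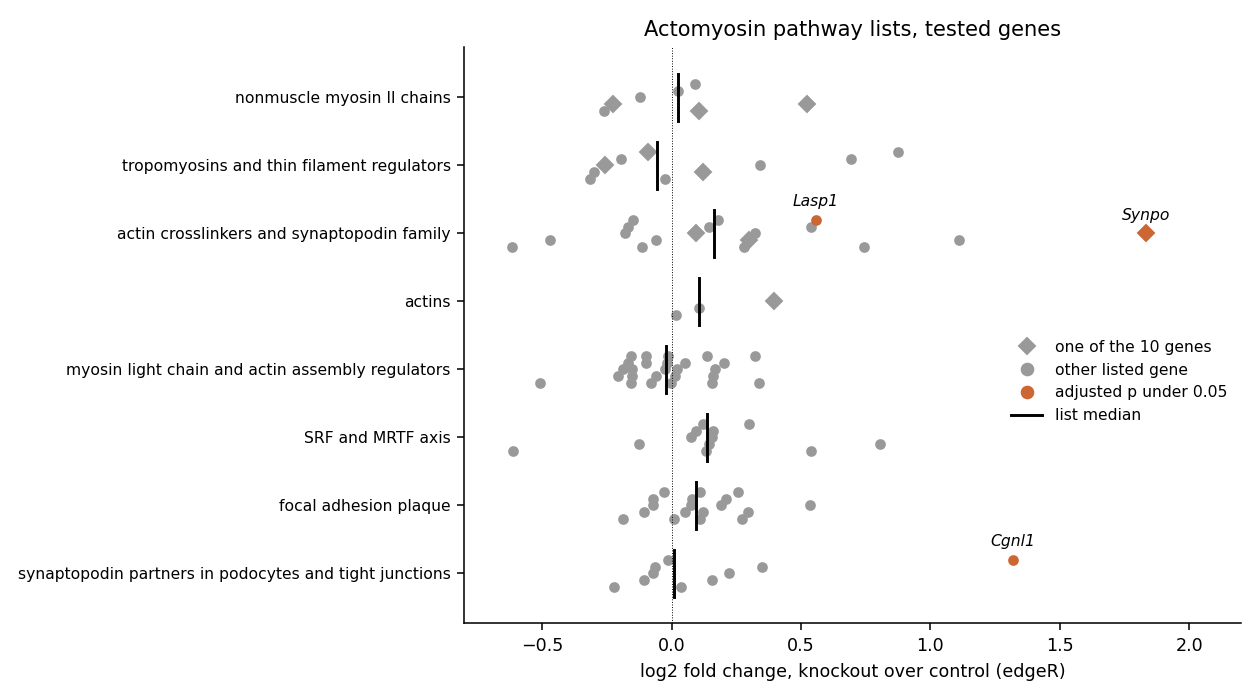
Fitted log2 fold change, knockout over control (x axis), of every tested gene in the 8 lists; diamonds are the 10 genes described here, coloured points have an adjusted p under 0.05 and black lines are list medians. Synpo (1.83), Cgnl1 (1.32) and Lasp1 (0.56) are the coloured points, and the list medians lie between −0.06 and 0.16. Synpo was chosen by this contrast, so its colour is not a test.

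In the other 6 lists 0 genes passed in edgeR without the block. Their counts at an unadjusted p under 0.05 are to be read against 9.9% higher and 9.1% lower among all genes tested. Of 26 genes that regulate myosin light chain phosphorylation and actin assembly, 3 were higher and 7 lower at an unadjusted p under 0.05, and the median was −0.02. Shroom3, an actin-binding protein of apical junctions, came closest, with 28.0 ± 1.77 against 39.8 ± 6.74 CPM (SD, n = 3 each) with an estimate of −0.51 on the log2 scale (SE 0.13; adjusted p 0.105, edgeR). It passed without DE680 (−0.64, edgeR adjusted p 0.0396) and in DESeq2 (−0.51, adjusted p 0.0121).

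Of 12 tested genes of the SRF and MRTF axis, 2 were higher and 1 lower at an unadjusted p under 0.05, with a median of 0.14. Fhl2, a LIM domain cofactor of that axis, had the smallest p (log2 fold change −0.61, edgeR adjusted p 0.157). Of 18 focal adhesion genes, 4 were higher and 0 lower at that level; Parva, an actin-binding partner of integrin-linked kinase, led with 0.27 (edgeR adjusted p 0.132). Of 10 tropomyosins and thin filament regulators, 1 was higher, Cnn2 (0.87, edgeR adjusted p 0.166), which encodes a calponin. Of 7 nonmuscle myosin II chains, 1 was lower, Myl12b (−0.26, edgeR adjusted p 0.248), a regulatory light chain. Of 3 tested actins none was below 0.05; Actg1, cytoplasmic gamma-actin, had the smallest p (0.11, edgeR adjusted p 0.606).

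The pattern of Synpo over the 6 libraries was most like that of Foxo3, Abcc10, Ankzf1, Nedd4l and Slc29a1, with Pearson r of log2(CPM + 1) from 0.993 to 0.996 among 9680 genes averaging at least 10 CPM. With 2 well separated groups, such an r mostly reflects the order of the groups and not the size of the change. Slc29a1, a nucleoside transporter, had 88.4 ± 6.91 CPM in knockouts against 60.2 ± 1.33 CPM in controls (SD, n = 3 each). Foxo3, a forkhead transcription factor, had 109 ± 2.44 and 92.9 ± 0.249 CPM (SD, n = 3 each), a far smaller difference than that of Synpo. On the same measure Cgnl1 had r = 0.988 and Lasp1 r = 0.975. Of the members above 10 CPM, Actn4 had r = 0.842, Actn1 0.698, Myh9 0.545, Tpm1 0.290, Tpm2 −0.665 and Tpm4 −0.706.

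Synpo, Acta2 and Myl9 are also expressed by cells other than keratinocytes, so markers of such cells were read in the same libraries. The 11 smooth muscle and pericyte markers analysed summed to 392 to 463 CPM in the knockout and 359 to 370 CPM in the control. Most of that sum came from Cspg4 and Notch3, which keratinocytes also express. Kcnj8, a potassium channel subunit of pericytes, and Cspg4 rose, with log2 fold changes of 2.61 (edgeR adjusted p 0.0304) and 0.51 (edgeR adjusted p 0.0427); each lost the call in all 6 fits that left out a library, DE679, DE680, DE684, DE685, DE688 or DE689 (adjusted p 0.0585 to 0.150), with log2 fold changes of 2.26 to 2.79 for Kcnj8 and 0.43 to 0.58 for Cspg4. Abcc9, the sulfonylurea receptor partner of Kcnj8, had 0.578 to 0.933 CPM in the knockout and 0.0444 to 0.395 CPM in the control; the groups did not overlap, and its estimate of 1.85 fell short of the threshold (edgeR adjusted p 0.162). Mcam, a marker of vessel walls, gave −0.58 (edgeR adjusted p 0.433), and Pdgfrb, a pericyte receptor too low to be tested, had 0.233 to 0.424 CPM in the knockout and 0.159 to 1.01 CPM in the control. On the log2(value + 1) scale of the authors' signal the Kcnj8 difference was 1.08. Among smooth muscle markers, Myh11 had 4 to 10 counts per library and Cnn1 had 1 to 12. Tagln had 22 to 79 counts, about the level of Acta2. Smtn, of the same list, was far higher, at 56.5 to 72.2 CPM in the knockout and 61.6 to 70.0 CPM in the control (log2 fold change −0.04, edgeR adjusted p 0.877). Rgs5, a pericyte marker, had 27, 4 and 28 counts in DE679, DE685 and DE688 and 1 to 5 in the controls.

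**Figure D5:**
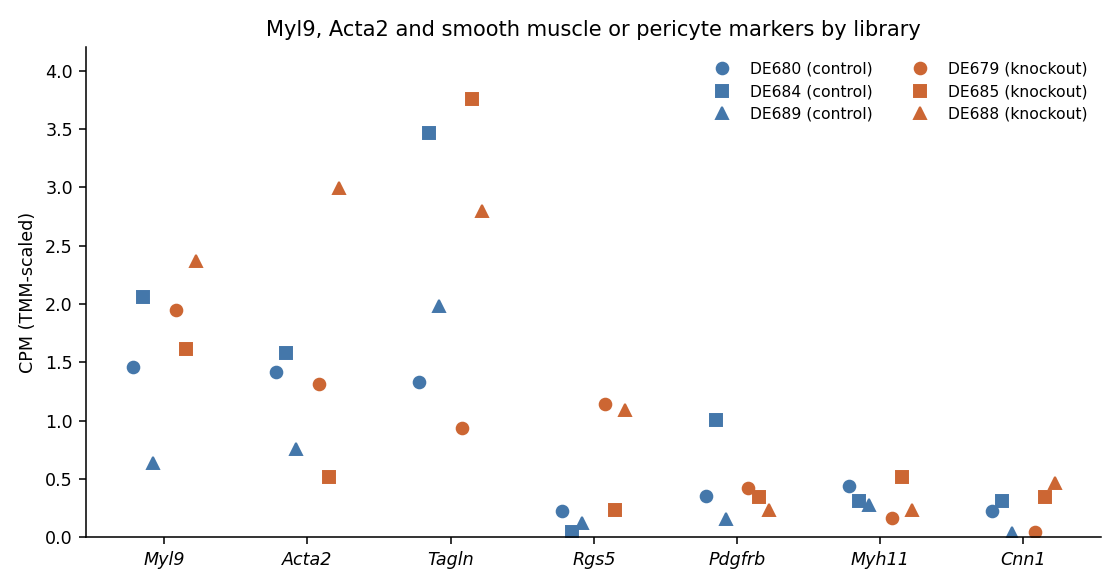
Level in CPM (y axis, from 0) of Myl9, Acta2 and 5 smooth muscle or pericyte markers in each library; colours are genotypes and symbols are libraries. All lie below 4 CPM, and Myh11 does not exceed 0.520 CPM. Of the genes plotted, only Rgs5 has its knockout libraries all above its controls, and narrowly. The knockout DE685 had 4 Rgs5 counts (0.231 CPM) and the control DE680 had 5 (0.222 CPM). Among the markers not plotted, Kcnj8, Abcc9 and Cspg4 also had every knockout library above every control, and Smtn, Mcam and Notch3 overlapped.

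The 9 fibroblast markers summed to 936 to 1062 CPM in the knockout and 509 to 620.4 CPM in the control. That difference came mostly from Dcn and Postn, 2 of the 8 tested, which rose by 1.90 and 0.75 on the log2 scale (edgeR adjusted p 0.00782 and 0.0253). Postn lost the call without DE679, DE680, DE685 or DE688 (adjusted p up to 0.115). Of the 8 tested, 4 were higher and 4 lower by point estimate. Thy1 was higher (log2 fold change 0.85, edgeR adjusted p 0.056) and Fbn1 lower (−0.99, edgeR adjusted p 0.166), each with no overlap of the groups and neither called. The fibroblast collagen Col1a1 had 4.71 to 6.46 CPM in the knockout and 3.81 to 12.6 CPM in the control, and Lum had at most 7 counts in any library. Endothelial markers summed to 3.99 to 4.90 CPM in the knockout and 4.28 to 7.19 CPM in the control, and skeletal muscle markers to 3.39 to 3.85 and 2.97 to 4.30 CPM. Melanocyte markers summed to 71.6 to 111 and 49.0 to 77.3 CPM, immune markers to 52.9 to 128 and 28.1 to 107 CPM, keratinocyte markers to 47613 to 57581 and 47314 to 65859 CPM, and genes of dissociation stress to 1222 to 1498 and 1113 to 1513 CPM. Of these, 0 passed in the endothelial, skeletal muscle, melanocyte, immune, keratinocyte and stress lists in edgeR, with 2 melanocyte and 2 keratinocyte genes at an unadjusted p under 0.05. The part of any of these cells in the Synpo difference was not tested.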

How the data were processed

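Estimated counts and a normalized signal, both by gene, were deposited by the authors. The signal equals, in each library, a constant times the estimated count, plus 0.001, by a method not given in the sources used here. Per the submitters' processing notes, bcl2fastq 2.20, cutadapt 1.18, STAR 2.7.0f and Partek were used with mm10; counting and strand setting are not given in the sources used here. Columns show group but not sample, so each was assigned to its group only. Estimated counts were rounded (53.0% to 57.7% of a library's values were whole), filtered with filterByExpr, scaled by TMM and fitted with edgeR 4.0.16 (glmQLFit, glmQLFTest) with genotype as the only term; the test had been laid out for counts, rounded if estimated. P-values were adjusted by Benjamini-Hochberg over 15422 genes, with a threshold of 0.05. Intervals of fold changes are fitted estimates with SE derived from the F statistic. An exact two-sided permutation test of 3 against 3 cannot go below 0.1, so none was run. Nothing in the labels says that replicates are separate animals beyond their separate titles, so p-values measure the spread between these libraries; within groups pairs differed beyond sampling noise (chi-square 11.2 to 36.3 per degree of freedom). Counting floors cover counting error only.

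The fit was tested on simulated data drawn with the real means, dispersions and library sizes. The genes changed were drawn only from those averaging more than 5 CPM. Of 100 genes changed 2-fold, 97% were called, and of 100 changed 4-fold, 100%, among 15131 genes, with 10 false calls. Myh10, Myl9 and Acta2 lay below that level and changes smaller than 2-fold were not simulated, so these rates do not cover them. Gene coordinates are from GENCODE M21 (GRCm38), whose starts matched 99.4% of the 19099 genes with a single entry of the same name. Levels per kilobase used the union of GENCODE exons, and promoter windows came from RefSeq (GRCm38.p6), with 9 members matched; that of Synpo was not used here. The members and lists were chosen with earlier results of these data known. Genes named were the 10 members, Gpr161, Gli1, from each list every gene called in edgeR or else the one with the smallest p, and the 5 genes most correlated with Synpo; Synpo2, Kcnj8, Cspg4, Dcn, Postn, Rgs5, other markers and the further DESeq2 calls were named after their values were seen. Alternatives were scaling by RLE or by upper quartiles, omitting the filter, requiring 1 CPM on average, testing with DESeq2 1.42.0, with limma-voom (limma 3.58.1) or with limma on the authors' normalized signal as log2(value + 1), leaving out each library in turn and, added after seeing the data, a block of adjoining library tags.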

Additional observations from a re-analysis of the deposited data

How the results depend on the processing

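As a description, the log2 fold change of Synpo was 1.75 to 1.85 under the 7 that kept every library and 1.69 (without DE688) to 1.93 (without DE685) under the 6 that left one out. The other 9 members stayed short of the threshold in these 13 alternatives and with the block described next. Direction reversed only when a library was left out: Tpm1 ranged from −0.075 to 0.26 in those fits and Acta2 from −0.41 to 0.79. With DESeq2, 565 genes were higher and 307 lower, and 11 genes of the actomyosin lists were called against 3, with Synpo included in both counts. The cause was not tested. Leaving out each library in turn gave 65 (without DE688) to 109 (without DE689) higher and 3 (without DE679) to 19 (without DE680) lower genes. Each of the 6 fits lay more than 1.5 times below the full fit, and 2 to 3 list genes passed, Synpo included. The part of the smaller number of libraries in these counts was not tested. No paired analysis was possible because the columns carry no replicate numbers. A block of adjoining library tags, chosen after seeing the data, gave 465 higher and 239 lower genes against 192 and 55, and 9 list genes against 3; whether such tags mark shared preparation is not given in the sources used here. Depth limits Myh10, Myl9 and Acta2, whose libraries held as few as 9 counts.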
